A study of Homo sapiens with 8 samples.

Results

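The genes described here are 9 classic targets of the transcription factor NRF2: ME1, GCLC, GCLM, SLC7A11, NQO1, TXNRD1, SRXN1, HMOX1 and OSGIN1. They were chosen by name from a gene list for NADPH supply, glutathione synthesis and quinone reduction, at a time when their abundance, footprint and translation efficiency changes in these libraries were already known. Their changes are therefore a description, and the calls taken from fits across all genes support nothing independently. All 9 were among the 11244 genes in the table of translation efficiency (TE) and the 60718 genes in the input count table, and all 9 passed the filters on low values.

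The libraries came from METTL5-WT and METTL5-KO cells labelled HepG2, a human liver cancer line, with METTL5 disrupted in the METTL5-KO cells by CRISPR-Cas9 guides that cut out an internal stretch of the gene. METTL5 encodes a methyltransferase that modifies ribosomal RNA. Every plate of both genotypes received cycloheximide, which stalls elongating ribosomes, at 100 µg/ml for 7 min before lysis, and each of 2 lysates per genotype gave an input RNA library and a library of ribosome-protected fragments (RPF). Input reads measure transcript abundance, RPF reads measure ribosomes on coding sequence, and TE is the ratio of the RPF value to the input value. Each genotype was grown from an isolated clone and the clone behind each replicate was not stated, so clone and genotype cannot be told apart. Nothing states that the 2 lysates of a genotype were separate cultures, so p-values measure the spread between these lysates.

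Input libraries held 10710226 to 15307257 counts. The METTL5-WT RPF libraries held 3970779 and 4592443 reads and the METTL5-KO ones 8626705 and 9255921, so the footprints of METTL5-KO were the more deeply sequenced. METTL5 itself fell from 490 and 542 input counts in the METTL5-WT lysates to 208 and 151 in the METTL5-KO lysates, which matched the labels. The libraries did not show the defining transcripts of liver cells: of 8 hepatocyte markers (ALB, AFP, APOA1, APOB, TTR, SERPINA1, FGB and HNF4A), 3 had no count in any input library, none exceeded 9 counts in any of them, and their summed level was 0.28 to 0.784 CPM (counts scaled to the library total). The fibroblast collagen COL3A1 had 2536 to 3317 counts in every input library, and its level was 296 and 284 CPM in METTL5-WT against 200.1 and 208 CPM in METTL5-KO. COL1A1 had 429 to 937 counts and COL1A2, the other fibroblast marker, at most 1, while 3 lymphocyte and 3 endothelial markers summed to at most 0.0892 and 1.25 CPM. The label HepG2 is used here only as the submitters' name for these cells, and the part of cell identity in the changes below was not tested.

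NRF2, the product of NFE2L2, is held at a low level by KEAP1, an adaptor that delivers it to a CUL3 ubiquitin ligase for degradation. When oxidants or electrophiles modify KEAP1, or when KEAP1 is sequestered or mutated, NRF2 enters the nucleus, pairs with a small MAF protein and binds antioxidant response elements. Its targets make NADPH and glutathione, reduce quinones and peroxides, and break down heme, and the pathway is strong in liver.

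The sequences that define this family in the genome are the response elements, so the core motif TGACNNNGC was searched on both strands of each promoter. The windows below are 30 bases each from GRCh38.p14 (hg38), written on the strand of the gene, with the match in capitals. A match that reads GCNNNGTCA lies on the opposite strand.

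NQO1: cgcagtcacagTGACTCAGCagaatctgag
ME1: atctcctgccaTGACTCAGCgcttctcgca
GCLM: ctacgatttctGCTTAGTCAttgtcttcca
TXNRD1: agtggatttctGCTTTGTCAttctgactct
GCLC: gacaggtcattGCTCTGTCAacacatattt
OSGIN1: gagacaatctgTGACTTGGCcccagttttc

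The NQO1 window lay at chr16:69726997-69727026 on the minus strand, with the match 455 bases upstream of the RefSeq start. The ME1 window lay at chr6:83431170-83431199 on the minus strand, with the match 137 bases upstream, and its 9 matched letters were those of NQO1. The GCLM window (chr1:93909446-93909475, minus strand) and the TXNRD1 window (chr12:104286919-104286948, plus strand) had their matches 34 and 102 bases upstream of a start. The GCLC window (chr6:53545953-53545982, minus strand) and the OSGIN1 window (chr16:83952672-83952701, plus strand) had theirs 870 and 557 bases upstream. TXNRD1 had 2 further matches at its other start and ME1 had 1 just downstream of its start. In GENCODE 44, the ME1 window lay between genes, the GCLC and OSGIN1 windows in introns of longer models of those genes, the GCLM and TXNRD1 windows at least partly in exons of other models of those genes, and the NQO1 window in an exon of the divergent transcript NQO1-DT. Of the 7 genes with a RefSeq promoter entry, 6 held the motif between 1000 bases upstream and 50 bases downstream of a start and SRXN1 did not. This motif is common: 37.4% of all 27305 genes in that table held it in the same window, so a match is a description of the letters and not of a bound site. HMOX1 and SLC7A11 were not searched.

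All 9 genes were higher in METTL5-KO input RNA, by 0.37 to 1.49 on the log2 scale (median 0.84, against -0.0043 for all 14054 genes tested). All 9 passed edgeR's quasi-likelihood test at an adjusted p under 0.05, and 11.8% of all genes tested were called higher in that fit. The 2 METTL5-KO values lay above both METTL5-WT values for all 9 genes, as they did for 31.9% of the 11240 genes with TE values. Footprints were called higher for 8 of the 9 in limma, where 16.2% of all genes were called higher. The median log2 RPF change was 1.14 against 0.02 for all genes. Here too the groups did not overlap for any of the 9, a pattern that 32.4% of all genes shared. TE was called higher for NQO1 and for none of the other 8, in a fit that called 2.7% of all genes higher. With any 1 of the 4 lysates left out, the log2 RPF changes of all 9 stayed above 0. They ran from 0.15 for SRXN1 to 1.89 for SLC7A11 over these fits. The input count fell to 6 without METTL5-WT replicate 1 and to 5 without METTL5-WT replicate 2, where the share of all genes called higher was 4.42% and 4.94%.

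**Figure D1:**
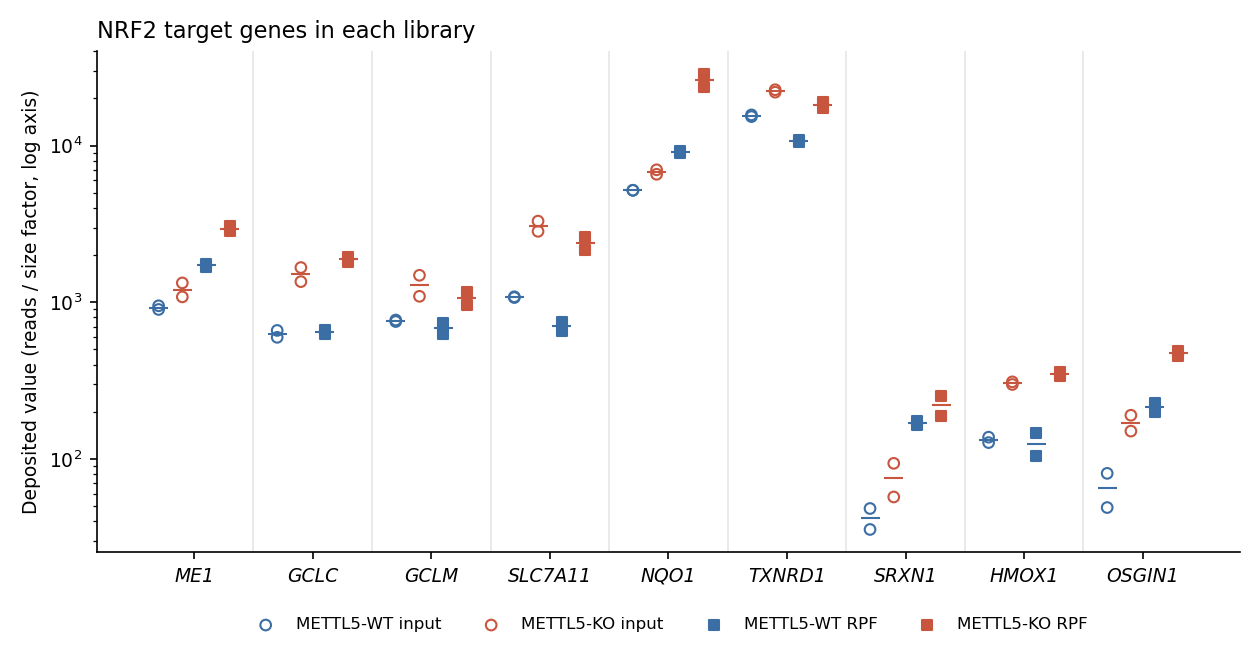
Deposited values (reads divided by a size factor, log axis) of the 9 NRF2 target genes in each of the 8 libraries. Open circles are input and filled squares are RPF, blue is METTL5-WT and red is METTL5-KO, and short lines are means of 2 libraries. Red lies above blue within each library type for all 9 genes.

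Together the 9 genes took 0.337% and 0.343% of input reads in METTL5-WT against 0.531% and 0.491% in METTL5-KO, counted over the genes in the TE table. Of RPF reads they took 0.254% and 0.262% in METTL5-WT against 0.503% and 0.535% in METTL5-KO. NQO1 and TXNRD1 made up most of this. The share of RPF reads on NQO1 alone went from 0.0945% and 0.1% in METTL5-WT to 0.228% and 0.279% in METTL5-KO, past the METTL5-KO share of TXNRD1 at 0.183% and 0.167%. The values that follow are reads divided by a size factor, as deposited, and are not corrected for gene length.

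ME1, malic enzyme, makes NADPH from malate in the cytosol. Its input values were 900.1 and 950 in METTL5-WT against 1330 and 1083 in METTL5-KO, and its RPF values were 1689 and 1753 in METTL5-WT against 3072 and 2840 in METTL5-KO. Both library types were higher in METTL5-KO without overlap, by a wider margin in RPF. The log2 input change was 0.37 ± 0.12 (SE, edgeR adjusted p = 0.0307) and the log2 RPF change was 0.78 ± 0.11 (limma adjusted p = 6.86e-05).

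Glutathione synthesis was represented by the catalytic and modifier subunits of glutamate-cysteine ligase, GCLC and GCLM, and by SLC7A11, the cystine importer that supplies the cysteine. GCLC input was 598 and 662 in METTL5-WT against 1666 and 1355 in METTL5-KO, and GCLC RPF was 668 and 626 in METTL5-WT against 1950 and 1804 in METTL5-KO. SLC7A11 input was 1085 and 1072 against 3296 and 2837, and SLC7A11 RPF was 748 and 658 against 2600 and 2165. These were steps of over 2-fold between the nearest libraries of the genotypes in both library types. GCLM input was 771 and 754 against 1487 and 1092, and its RPF was 630 and 734 against 958 and 1170. The modifier subunit thus moved less than the catalytic one, with log2 input changes of 0.74 ± 0.13 for GCLM and 1.25 ± 0.13 for GCLC (edgeR adjusted p = 0.00018 and 5.51e-08). SLC7A11 had the highest input change of the 9, at 1.49 ± 0.12 (adjusted p = 6.95e-10), and the highest RPF change, at 1.76 ± 0.12 (limma adjusted p = 1.01e-08). The log2 RPF changes were 1.54 ± 0.12 for GCLC and 0.64 ± 0.14 for GCLM (limma adjusted p = 6.74e-08 and 0.003), and the GCLM call had an adjusted p of 0.0579 without the variance trend.

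NQO1 reduces quinones by a pair of electrons and is a widely used readout of NRF2 activity. Its input values were 5189 and 5180 in METTL5-WT against 7006 and 6559 in METTL5-KO. Its RPF values were 8918 and 9239 in METTL5-WT against 23761 and 28814 in METTL5-KO. The input means differed 1.31-fold and the RPF means 2.9-fold, with no overlap in either. The log2 input change of 0.37 ± 0.11 (edgeR adjusted p = 0.0136) lost its call when either METTL5-WT replicate was left out, at adjusted p = 0.331 and 0.336. The log2 RPF change was 1.53 ± 0.11 (limma adjusted p = 2.56e-08).

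TXNRD1, the thioredoxin reductase of the cytosol, and SRXN1, which restores overoxidised peroxiredoxins, belong to the thiol branch of the response. TXNRD1 had the most input reads of the 9, with values of 15306 and 15694 in METTL5-WT against 22718 and 21915 in METTL5-KO, and its RPF values were 10836 and 10595 against 19000 and 17274. Its genotypes were well apart, and its log2 changes were 0.51 ± 0.11 in input (edgeR adjusted p = 0.00125) and 0.76 ± 0.11 in RPF (limma adjusted p = 5.81e-05). SRXN1 rested on few reads, with 71 and 50 input counts in METTL5-WT against 95 and 187 in METTL5-KO. SRXN1 values were 48.3 and 35.5 against 57.3 and 93.9 in input, and 164 and 174 against 188 and 254 in RPF. The nearest libraries of the genotypes stood 1.19-fold apart in input and 1.08-fold apart in RPF, which is small beside the gap between the METTL5-KO replicates. Its input change of 0.84 ± 0.27 (edgeR adjusted p = 0.0275) was not called by DESeq2 (adjusted p = 0.0861), by the 8-library limma model (adjusted p = 0.0551), without METTL5-WT replicate 2 (0.64, adjusted p = 0.273) or without METTL5-KO replicate 2 (0.43, adjusted p = 0.35). Its RPF change of 0.37 ± 0.28 was not called (limma adjusted p = 0.343). The TXNRD1 and ME1 input calls were lost without either METTL5-WT replicate, at adjusted p from 0.161 to 0.413.

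HMOX1, heme oxygenase, opens the heme ring and releases iron, and OSGIN1 encodes an oxidative stress-induced growth inhibitor. HMOX1 values were 127 and 138 in METTL5-WT input against 299 and 311 in METTL5-KO, and 105 and 146 in METTL5-WT RPF against 340.1 and 361 in METTL5-KO. The METTL5-WT RPF libraries held only 44 and 73 HMOX1 reads. OSGIN1 values were 81 and 49 against 151 and 190.3 in input, and 228 and 199 against 457 and 486 in RPF. Both genes were higher in METTL5-KO in both library types by at least 1.86-fold between the nearest libraries. The log2 RPF changes were 1.49 ± 0.19 for HMOX1 and 1.14 ± 0.23 for OSGIN1 (limma adjusted p = 2.41e-05 and 0.00128). OSGIN1 overlaps MLYCD on the same strand, and that neighbour had at most 137 input counts.

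The RPF change of each gene was split into an abundance part and a TE part, both from the 8-library limma model, in which the log2 RPF change is the exact sum of the log2 input change and the log2 TE change. For 7 of the 9 genes the abundance part was the larger. It made up 85.6% of the log2 RPF change of SLC7A11, 81.7% of that of GCLC, 80.0% of that of HMOX1 and 69.4% of that of TXNRD1. GCLM, SRXN1 and OSGIN1 had TE changes below 0, none of which was called. ME1 was divided nearly evenly, with 48.2% in abundance and 51.8% in TE. NQO1 was divided the other way, with 25.3% in abundance and 74.7% in TE.

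**Figure D2:**
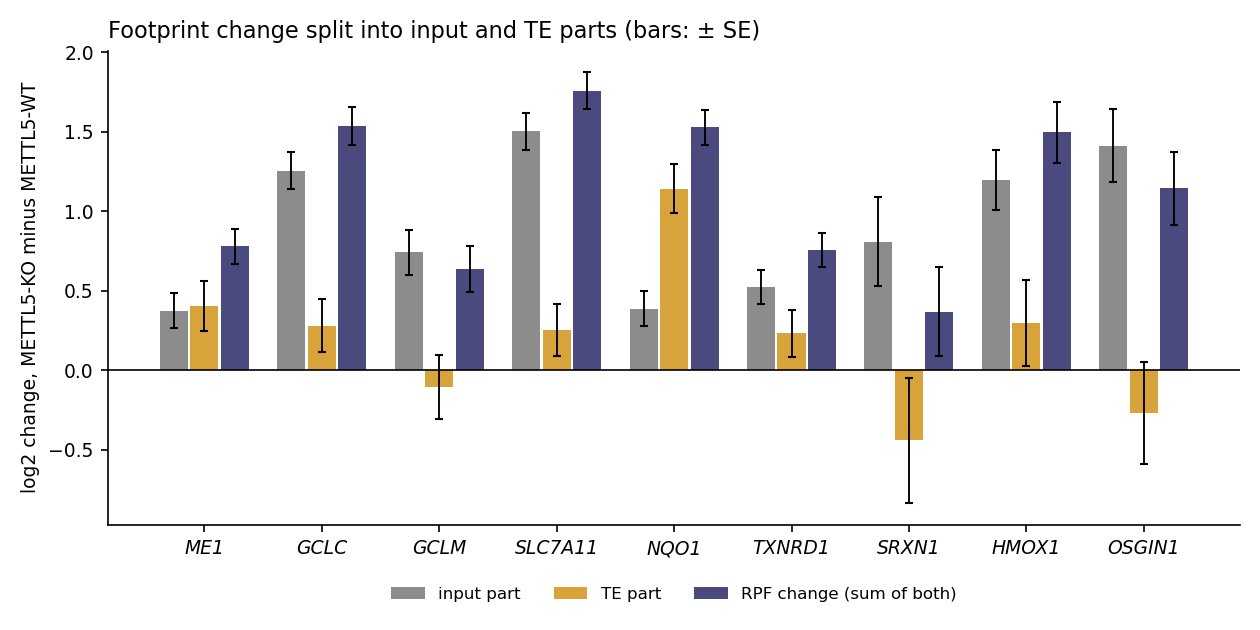
Log2 change, METTL5-KO minus METTL5-WT, of each NRF2 target gene in input (grey), TE (yellow) and RPF (blue), with bars from 0 and error bars of 1 SE from the 8-library limma model. The grey and yellow bars add up to the blue one. The yellow bar is the taller part for NQO1 and nearly level with the grey for ME1. For the others it is the shorter part, above 0 for GCLC, SLC7A11, TXNRD1 and HMOX1 and below 0 for GCLM, SRXN1 and OSGIN1.

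The TE of NQO1, as the RPF value over the input value, was 1.72 and 1.78 in METTL5-WT against 3.39 and 4.39 in METTL5-KO. The METTL5-KO lysates were apart from each other as well as from the METTL5-WT pair. The log2 TE change was 1.14 ± 0.15 (limma adjusted p = 0.00157), a 2.2-fold rise with a 95% interval of 1.76 to 2.76-fold. By size, its TE change ranked 158 among the 11240 genes tested, and 8 among the 2025 of them whose mean value reached 1000 or more. The lysate was also used as a replicate block, which pairs the input and RPF library of the same lysate. NQO1 was again the 1 gene called of the 9, in a fit that called 794 of 11240 genes. The call did not hold in 3 settings: without METTL5-KO replicate 2, where 4 of 11240 genes were called (log2 0.95, adjusted p = 0.0554), without the variance trend, where 1 of 11240 genes was called at all (adjusted p = 0.147), and with quantile normalization across all 8 libraries (log2 0.44, adjusted p = 0.121). With quantile normalization within each library type, an alternative chosen after seeing the data, the change was 0.81 (adjusted p = 0.00806).

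For the other 8 genes the TE change ran from -0.44 ± 0.39 for SRXN1 to 0.40 ± 0.16 for ME1. None of them passed, with limma adjusted p from 0.138 for ME1 to 0.809 for GCLM. The 95% intervals of the fold change in TE were 1.05 to 1.66 for ME1, 0.951 to 1.55 for GCLC, 0.937 to 1.52 for SLC7A11 and 0.944 to 1.46 for TXNRD1. HMOX1 (0.828 to 1.83), OSGIN1 (0.519 to 1.33), SRXN1 (0.414 to 1.31) and GCLM (0.693 to 1.25) had wider ones relative to their means. All 8 intervals ended below the 2.2-fold change of NQO1, and that of HMOX1 overlapped the interval of NQO1. A difference in TE change between genes was not tested. TE was higher in both METTL5-KO lysates than in both METTL5-WT lysates for 6 genes (NQO1, ME1, GCLC, SLC7A11, TXNRD1 and HMOX1), a pattern that 28.2% of all genes shared. For SRXN1 the METTL5-WT values of 3.34 and 4.8 stood just above the METTL5-KO values of 3.25 and 2.69, on 50 to 187 input counts. The share of all genes with that lower pattern was not counted. TE overlapped between the genotypes for GCLM and OSGIN1. The median TE change of the 9 was 0.25, and 0.24 without NQO1, against 0.02 for all genes.

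**Figure D3:**
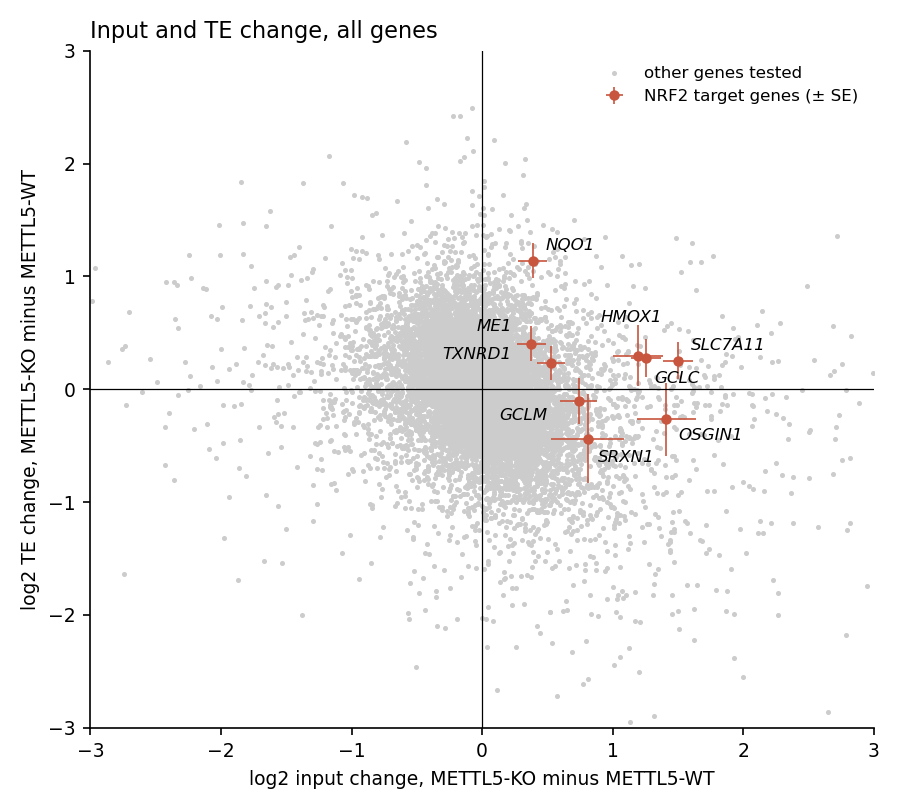
Log2 input change (x) against log2 TE change (y), METTL5-KO minus METTL5-WT, for the genes tested (grey) and the 9 NRF2 target genes (red, ± SE), from the 8-library limma model. Both axes share the input values, and 50 genes lie outside the limits of 3. All 9 genes lie to the right of 0, and NQO1 alone of them lies above 1 on the TE axis.

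The genes differed widely in level, here given per kilobase of exon for input and per kilobase of coding sequence for RPF. Exon length covered all annotated models of a gene, and coding length was that of the canonical transcript. In METTL5-WT input TXNRD1 was highest, at 2310 ± 40.8 (SD, n = 2), followed by NQO1 at 1745 ± 2.29 and ME1 at 277 ± 10.6. GCLM (140.5 ± 2.2), SLC7A11 (112 ± 0.909), GCLC (73.1 ± 5.23) and HMOX1 (57.5 ± 3.23) followed in that order, each apart from its neighbour by more than the SDs. SRXN1 (16.6 ± 3.58) and OSGIN1 (11.7 ± 4.07) were lowest and did not differ beyond their spread. In METTL5-KO input SLC7A11 stood above GCLM, at 318 ± 33.7 against 238 ± 51.5, a gap within the sum of their SDs. In RPF, NQO1 was first in both genotypes, at 11045 ± 276 in METTL5-WT and 31980 ± 4347 in METTL5-KO, and TXNRD1 was second at 5503 ± 87.4 and 9315 ± 627.

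TE per length, which compares RPF per kilobase of coding sequence with input per kilobase of exon, placed these genes at very different points among all genes. In METTL5-WT, SRXN1 lay at percentile 97.7 and OSGIN1 at 92.5, and their input per kilobase was the lowest of the 9. A longer annotated exon length lowers input per kilobase and raises TE per length, so these percentiles depend on the annotation. For OSGIN1 the exon length was 5558 bases and the coding length 1431. TXNRD1 and HMOX1 were at the low end, at percentiles 32.7 and 34.8. NQO1 was at percentile 76.3 in METTL5-WT and 93.2 in METTL5-KO. The other changes were smaller, for example from 52.3 to 65.9 for ME1, and SRXN1 and OSGIN1 came down to 95.6 and 89.8.

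TE change went with the GC content of the coding sequence over all genes, which were put in 10 bins of equal size, from a median of 0.31 in the bin with the lowest GC to -0.36 in the bin with the highest. NQO1, at 48.8% GC, lay at percentile 98.7 of the TE changes in its own bin, which had a median of 0.14. SRXN1 (69.1% GC) and OSGIN1 (65.1% GC) were in the bin with the highest GC, and their TE changes of -0.44 and -0.27 were at percentiles 43.0 and 58.2 of it. HMOX1, at 61.3% GC, was at percentile 91.5 of a bin with a median of -0.31. GCLM, at 45.9% GC, had the lowest place in its own bin, at percentile 18.9. With the GC trend removed the TE change was 1.00 for NQO1 (limma adjusted p = 0.00281), 0.15 for ME1, 0.56 for HMOX1 and from -0.31 to 0.08 for the others, and NQO1 was again the 1 gene called of the 9.

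Runs of neighbouring genes moved together in these libraries, so each input change was set beside the median of 40 neighbouring genes. These were the tested genes next in order along the chromosome, whatever their distance, 20 per side unless the chromosome end was closer. NQO1 lay among neighbours that were lower in METTL5-KO: their median log2 input change was -0.41, with 6 of 40 above 0. OSGIN1, on the same chromosome, had a neighbour median of -0.51 with 3 of 40 above 0, and none of them was above OSGIN1 itself. SRXN1 had a neighbour median of -0.24. Of all genes, 4.92% had a lower neighbour median than NQO1, 2.23% a lower one than OSGIN1 and 7.42% a lower one than SRXN1. The other 6 genes lay among neighbours with medians from -0.12 to 0.06. All 9 were above their neighbours' median, by 0.43 for ME1 to 1.88 for OSGIN1, and the difference for NQO1 was 0.79 against its unadjusted change of 0.37. The part of these regional shifts in the changes of the 9 genes was not tested.

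**Figure D4:**
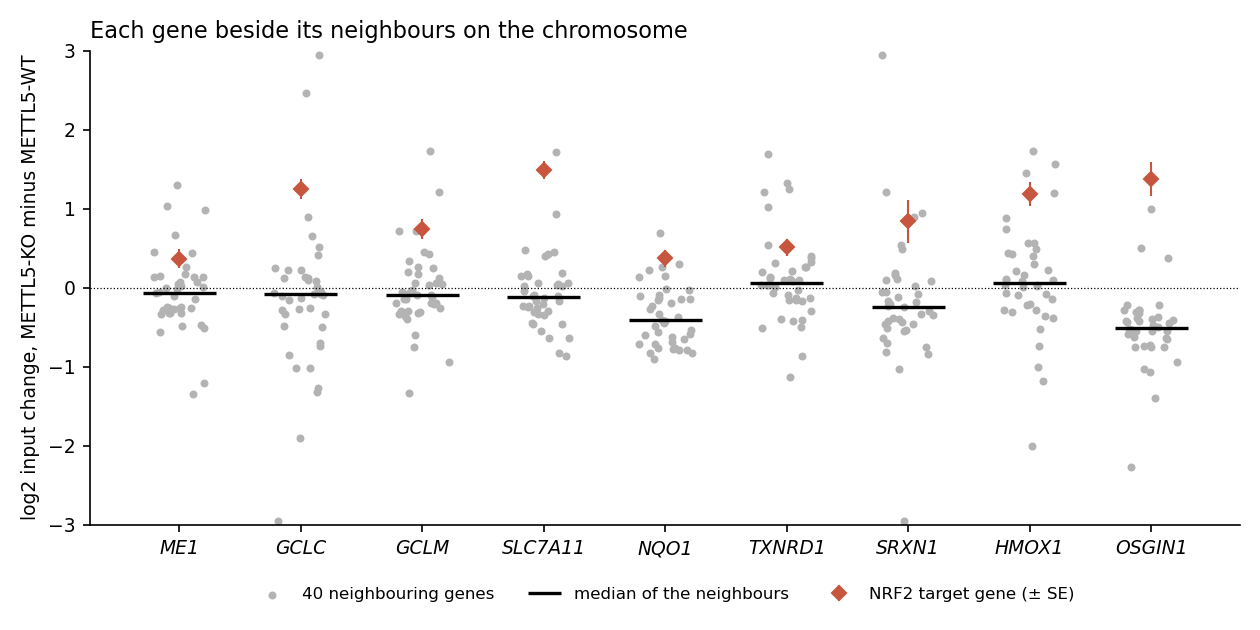
Log2 input change, METTL5-KO minus METTL5-WT (edgeR), of each NRF2 target gene (red diamond, ± SE) and of its 40 neighbouring genes on the chromosome (grey), with the neighbours' median as a black line. Of the 360 grey points, 4 lie past the axis and are drawn at its edge. Each diamond is above its black line, and the lines of NQO1 (-0.41) and OSGIN1 (-0.51) are the lowest.

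The genes with patterns most like that of NQO1 were sought by the Euclidean distance between log2 values centred over the 8 libraries, among 10626 other genes whose mean reached 10 in input and in RPF. The nearest was HMGCS1, the cytosolic synthase that feeds the cholesterol pathway, at a distance of 0.436. Its log2 changes were 0.65 in input, 1.45 in RPF and 0.80 in TE. PTGR1, a reductase of prostaglandin metabolites, followed at 0.521 with changes of 0.48, 1.27 and 0.78. UQCR10, a subunit of a respiratory chain complex, came next at 0.557 with changes of 0.39, 1.44 and 1.05. Distances were read off the same libraries that showed the change of NQO1, so they describe these libraries only.

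A further 48 genes of the NRF2 pathway, 11 regulators and 37 targets, were listed with earlier results of these data known. Of the 33 targets tested in input, 24 were higher, 3 lower and 6 not called by edgeR. Of the 32 tested in RPF, 25 were called higher and 2 lower in limma. In TE 3 were called higher, 2 lower and 27 were not called. Over all genes tested, 22.5% were called in input (11.8% higher), 29.3% in RPF (16.2% higher) and 4.79% in TE (2.7% higher). The median log2 changes of these targets were 0.68 in input, 0.79 in RPF and 0.14 in TE, so their median, like that of the 9, was higher in abundance than in TE. Enzymes of quinone, carbonyl and xenobiotic metabolism had the highest median, 1.64 in input, with 11 of 12 called higher.

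By the rule for named genes, 4 further targets stand for the rises. AKR1C2, an aldo-keto reductase of steroids and carbonyls, went from 252 and 240.2 to 3805 and 3997 in input, with a log2 RPF change of 4.06 ± 0.11. CBR3, a carbonyl reductase, had a log2 RPF change of 2.46 ± 0.23, AKR1C3 one of 2.38 ± 0.11 and AKR1C1 one of 2.27 ± 0.17, all with limma adjusted p of at most 8.11e-07. AKR1C1, AKR1C2 and AKR1C3 are similar in sequence, and only uniquely mapped reads were counted. Reads that fit several of them were left out, so their separate values are uncertain. The targets called lower in RPF were MGST1, a microsomal glutathione transferase, and ABCC4, a drug and nucleotide exporter. MGST1 had 2071 and 1848 input counts in METTL5-WT against 1 and 12 in METTL5-KO, and its RPF reads were 778 and 806 against 45 and 23. The TE call of MGST1 rests on those few METTL5-KO counts. ABCC4 had a log2 RPF change of -0.44 ± 0.10 (limma adjusted p = 0.00415).

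In the NADPH supply list, to which ME1 belongs by function, PGD, TKT and TALDO1 of the pentose phosphate pathway were called higher in both input (log2 0.86, 0.49 and 1.14) and RPF (1.17, 0.71 and 1.13), and IDH1 was not called in either. In the glutathione and thioredoxin list, 5 of 8 were higher in input and 2 lower, GSS and MGST1, and 6 were higher in RPF. Among all genes tested, 11.8% were called higher in input and 16.2% in RPF. The iron, heme and export list had 4 of 8 higher in input. It included FTL and FTH1, the ferritin chains, whose input rose by more (log2 1.30 and 1.04) than their RPF (0.59 and 0.38), so that both were called lower in TE (-0.71 and -0.67, limma adjusted p = 0.0465 and 0.0107). Ferritin genes have many processed copies, and their values are uncertain where reads were shared with these. PRDX6, a peroxiredoxin, and PTGR1 were called higher in TE, at 0.64 and 0.78 (adjusted p = 0.0162 and 0.0114).

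**Figure D5:**
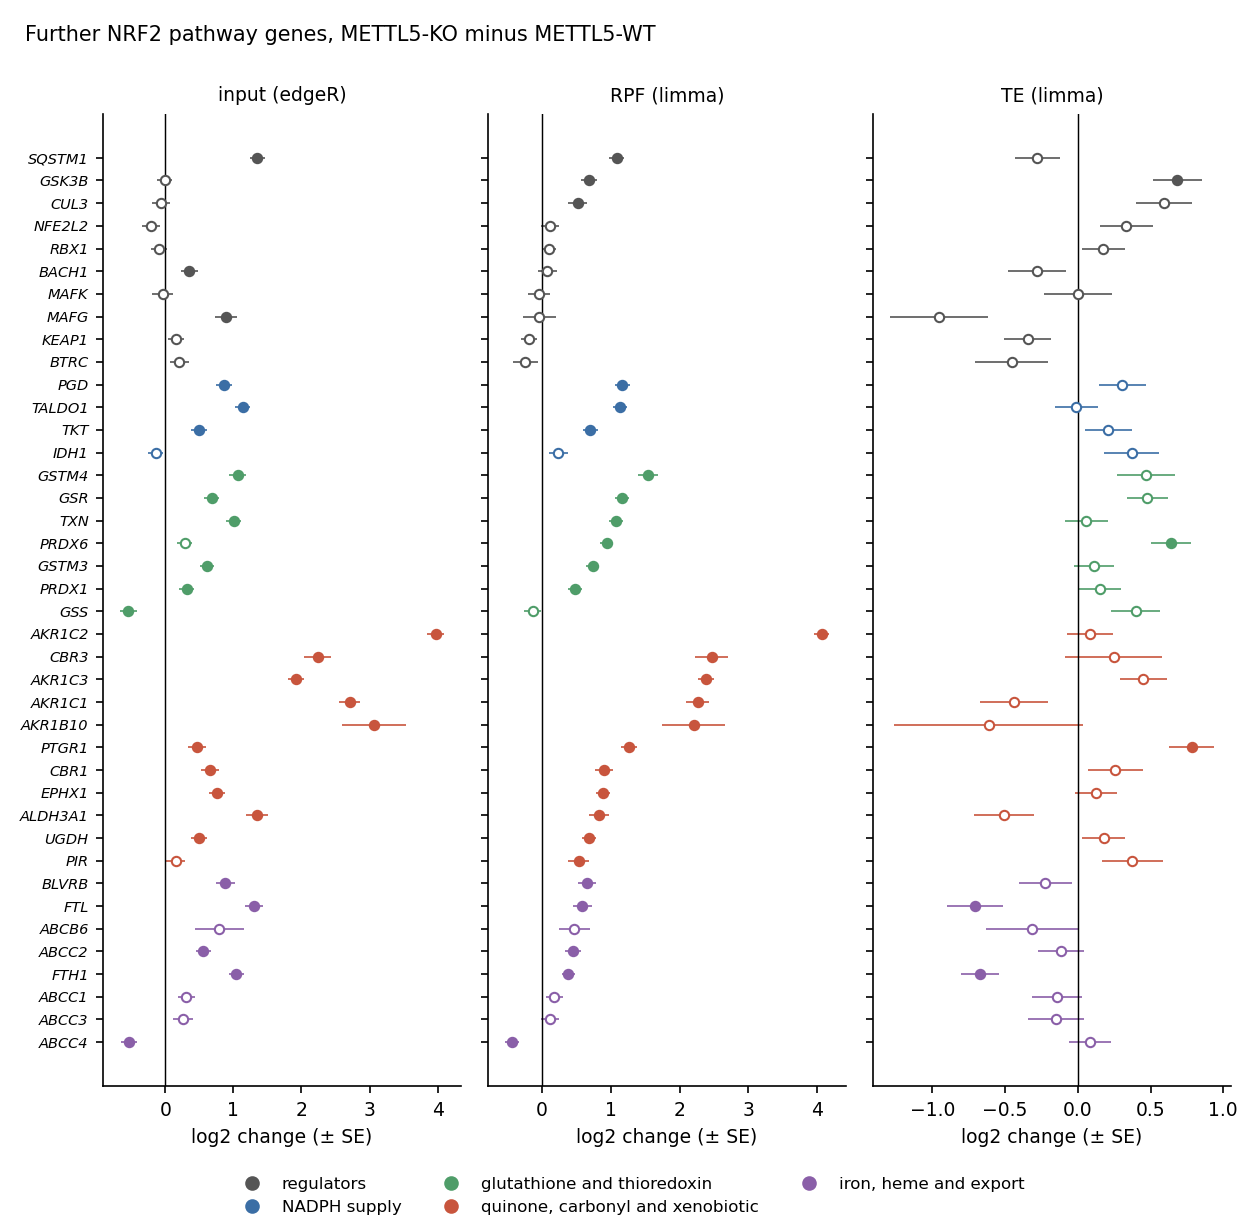
Log2 change, METTL5-KO minus METTL5-WT, in input (left), RPF (middle) and TE (right) for 40 further NRF2 pathway genes, with 1 SE as error bars, colours for the 5 lists, and filled points where the adjusted p was under 0.05. MGST1 is left out because its METTL5-KO counts were near 0. Filled points are frequent to the right of 0 in input and RPF and few in TE, and the x axes differ in scale.

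Of the 11 regulators, NFE2L2 itself was not called in input (-0.21 ± 0.13), RPF (0.12 ± 0.13) or TE (0.33 ± 0.18), and the same held for its repressor KEAP1, at 0.16 ± 0.12, -0.18 ± 0.12 and -0.34 ± 0.16. These values measure transcripts and footprints and not the stability of the NRF2 protein. SQSTM1, which sequesters KEAP1 and is itself an NRF2 target, rose in input by 1.35 ± 0.11 and in RPF by 1.09 ± 0.11 (adjusted p = 1.66e-09 in edgeR and 1.77e-06 in limma). The small MAF partners differed: MAFF (1.66 ± 0.33) and MAFG (0.89 ± 0.16) were called higher in input, and MAFK (-0.04 ± 0.15) was not. MAFF had only 18 and 27 input counts in METTL5-WT against 79 and 105 in METTL5-KO, and had no TE values. The RPF change of MAFG was -0.04 ± 0.24. Its TE change of -0.96 ± 0.34 was not called in limma (adjusted p = 0.103) but was called lower by edgeR (adjusted p = 0.0354). BACH1, a repressor at the same elements, was higher in input by 0.36 ± 0.13 (edgeR adjusted p = 0.0454), with an RPF change of 0.08 ± 0.14. CUL3 (0.52 ± 0.13) and GSK3B (0.69 ± 0.12), which act in NRF2 degradation, rose in RPF, and GSK3B was also called in TE (0.68 ± 0.17, limma adjusted p = 0.0292). RBX1 (0.10 ± 0.10) and BTRC (-0.24 ± 0.18) were not called in RPF.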

How the data were processed

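The authors mapped trimmed input reads to hg38 with STAR 2.7.3a and counted unique reads over exons by strand with featureCounts 1.6.0, per the labels (the file header names another release). RPF reads were trimmed, cleared of ribosomal RNA, mapped uniquely and counted on the RiboToolkit server, without removal of duplicates. The deposited input table holds raw counts per gene. The authors' TE table, named RPKM, holds input and RPF signal that proved to be whole reads divided by a size factor per library: 100% of values came out whole within 0.1 read. A log-scale test, planned when the table was taken for RPKM, was kept, and count tests on those reads were alternatives. The authors' own columns of log2 fold change, p-value and adjusted p-value were not used. Malformed lines of the count table (3) were left out.

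For input, edgeR 4.0.16 was run on the counts (robust quasi-likelihood fit with TMM scaling, after filterByExpr). For RPF and TE, limma 3.58.1 with a variance trend was run on log2(value + 1) of 8 libraries in 4 groups, for genes whose mean reached 1 in input and in RPF. A log2 change on that scale understates the change of low genes. Benjamini-Hochberg adjustment covered all genes tested, with calls under 0.05. DESeq2 1.42.0, R 4.3.3 and GENCODE 44 annotation were also used, and 99.1% of genes shared with that annotation lay at the same place. The motif was read from RefSeq promoter starts. The main limma fit, limma with a lysate block, limma on RPF libraries alone, edgeR, DESeq2 and GC trend removal were tested on simulated data. The other alternatives were not. The members, lists and tests were chosen with earlier results of these data known. Named genes were the 9 members, METTL5, all regulators, up to 4 further targets with the highest rise and fall in RPF among those called, and the 3 genes nearest NQO1. Of the lists, 1 gene is counted but not reported here by name. Genes named beside these were chosen after their values were seen.

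Input and RPF libraries of the same number and genotype came from 1 lysate, while METTL5-WT and METTL5-KO share only a number.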

Additional observations from a re-analysis of the deposited data

How the results depend on the processing

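Leaving out 1 lysate at a time gave 5 to 9 of the 9 genes called in input, 8 in RPF and 0 to 1 in TE, and 20 to 35, 27 to 29 and 1 to 4 of the further pathway genes. The share of all genes called in input also moved between these fits. It was far lower with a METTL5-WT replicate left out than with METTL5-KO replicate 1 left out. The lowest input counts came from the former fits and the highest were reached in the latter. These ranges therefore cannot separate the listed genes from genes in general. Calls by size were a change of 2-fold or more in either direction at an unadjusted p under 0.05. They numbered 4, 5 and 1 of the 9 genes, and 15, 13 and 1 of the further genes, in input, RPF and TE. By this rule 7.96%, 8.51% and 3.0% of all genes were called, and 4.9%, 4.39% and 1.15% were called higher. The further genes called by size include MGST1, which fell in input and RPF and was the 1 called in TE, on few METTL5-KO counts. Without the variance trend no gene of the 9 and none of the further genes was called in TE (0 and 0), against 1 and 6, and quantile normalization over the 8 libraries gave 0 of the 9. TE changes that were not called changed sign for GCLC (-0.041) and SLC7A11 (-0.188) under quantile normalization, for GCLM without METTL5-WT replicate 2 (0.024) or METTL5-KO replicate 1 (0.264, in a range of -0.47 to 0.264), and for OSGIN1 after removal of the GC trend (0.076, and 0.076 when the lysate was a block as well). Over the single genes, 11 of 90 alternative input values lost their call (8 of them with a lysate left out), as did 1 of 162 for RPF. The 90 include 1 untested value per gene, from subtracting the neighbours' median. The 162 include 18 for SRXN1, which had no RPF call to lose. In TE only NQO1 had a call to lose, and it was lost in 3 of its 19 alternatives. The cause was not tested.

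Same-numbered METTL5-WT and METTL5-KO libraries hardly deviated together (correlation 0.0386 for input, -0.00212 for RPF). With the number as a replicate block the calls were 9, 8 and 1 for the 9 genes in input, RPF and TE. They were 30, 30 and 6 for the further genes. Over all genes those fits called 3573 of 14054 in input, 3318 of 11240 in RPF and 588 of 11240 in TE. With the lysate as a block the TE calls were 1 of the 9 genes and 9 of the further genes. That fit called 794 of 11240 genes in TE, against 538 in the main fit. No call of the 9 genes changed with either block. Read depth limits SRXN1, HMOX1 and OSGIN1, with 44 to 99 RPF reads in the METTL5-WT libraries.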

Other observations

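A pair of further pathway genes were nearly all-or-none between the genotypes. CES1, a carboxylesterase of the xenobiotic list, had 0 and 1 input counts in METTL5-WT against 148 and 200 in METTL5-KO and was not among the genes with TE values. MGST1 had 2071 and 1848 input counts in METTL5-WT against 1 and 12 in METTL5-KO. GGT1, GPX2, GSTA1 and UGT1A6 had too few counts to be tested in either genotype. AKR1B10, at 6 and 5 input counts in METTL5-WT, was called higher in METTL5-KO, with a log2 input change of 3.07 ± 0.47 (edgeR).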
